A study of Mus musculus with 6 samples.

Results

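Immediate early genes are transcribed within minutes of a burst of neuronal activity, before any new protein has been made, and their transcripts are then rapidly degraded. Calcium entry and growth factor signalling activate the transcription factors CREB, SRF and MEF2, which are already present in the cell, and these switch the genes on. Most of the genes encode transcription factors that pass the signal on, whereas Arc encodes a protein that works at the synapse itself. In brain tissue their level is widely read as a mark of recent activity, although stress, handling and growth factors also induce several of them, in glial and vascular cells as well as in neurons.

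The set was given as 10 names: Arc, Fos, Fosb, Junb, Egr1, Egr2, Egr3, Egr4, Npas4 and Nr4a1. Of these, 9 were found by symbol among the 19251 genes of the count table, and all 9 passed the filter on low counts. Egr2 was not analysed here. The question was what intermittent fasting does to midbrain signalling in mice that model Parkinson's disease, and these genes report on the transcriptional response to neuronal activity. Polyadenylated RNA of the substantia nigra was sequenced from C57BL/6 mice under intermittent fasting (3 libraries) and from C57BL/6 mice fed ad libitum (3 libraries). All mice of both groups carried rAAV-A53T-aSynuclein, in which a recombinant adeno-associated virus delivers alpha-synuclein with a mutation of familial Parkinson's disease, so no library shows the tissue without it. The diets began 2 weeks after surgery and lasted 10 weeks. Fasting mice went without food for 24 hours on 3 days a week, each fast starting shortly before the lights went off. Mice of both groups were moved between cages every day, so this handling was shared. The sources used here do not give the promoter of the vector, the side sampled, the age of the mice or how long after the last fast tissue was taken. For transcripts that last for minutes to hours, that interval matters.

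Total counts ran from 42990234 to 46594066 in the fasting libraries and from 46337950 to 48179706 in the ad libitum libraries. The dopamine neuron genes Th and Slc6a3 were present in every library, Th at 105, 189 and 93.7 CPM under fasting and at 86.3, 92.6 and 236 CPM ad libitum, where CPM is the count of a gene relative to the scaled total of its library. Ad libitum replicate 2 stood apart. Summed over 12 genes of striatal neurons, a list drawn up after the values were seen, the level was 344, 276 and 395 CPM in fasting replicates 1, 2 and 3, and 309, 1559 and 277 CPM in ad libitum replicates 1, 2 and 3. The dopamine receptor gene Drd1 was at 42.4 CPM in that library and between 2.05 and 5.18 CPM in the other 5. Each immediate early gene is therefore also given without ad libitum replicate 2. Ad libitum replicate 3 was highest for dopaminergic and erythroid genes. The summed level of 10 dopaminergic genes was 863 to 1590 CPM under fasting, and 969, 953 and 2268 CPM in ad libitum replicates 1, 2 and 3. That of 5 erythroid genes was 254 to 657 CPM under fasting, and 430, 632 and 1736 CPM in ad libitum replicates 1, 2 and 3.

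Proximal promoters are shown for both genes that lay lower in every fasting library and are held in the table of promoters, Junb and Nr4a1, and for the activity-induced genes Fos and Npas4, whose groups overlapped. The sequences are those of RefSeq on build GRCm38.p6, cover the 250 bases before the annotated start and read 5′ to 3′ on the strand of the gene. Capitals mark half-sites of the cyclic AMP response element, the DNA element bound by CREB, searched on both strands as TGACG and CGTCA, and TATA boxes, searched on the strand of the gene as TATAAA and TATATA.
Junb, chr8:84978749-84978998, minus strand: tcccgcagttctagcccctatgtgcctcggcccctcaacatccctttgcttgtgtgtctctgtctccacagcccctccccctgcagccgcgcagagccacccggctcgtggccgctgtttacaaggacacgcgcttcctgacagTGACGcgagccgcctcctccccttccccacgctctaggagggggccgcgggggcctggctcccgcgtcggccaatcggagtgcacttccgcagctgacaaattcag
Nr4a1, chr15:101266596-101266845, plus strand: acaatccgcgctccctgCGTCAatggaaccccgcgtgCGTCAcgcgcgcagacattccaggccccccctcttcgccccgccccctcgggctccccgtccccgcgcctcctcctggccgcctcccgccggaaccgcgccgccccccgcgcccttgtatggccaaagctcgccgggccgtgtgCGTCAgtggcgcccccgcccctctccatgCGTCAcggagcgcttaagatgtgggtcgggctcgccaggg
Fos, chr12:85473640-85473889, plus strand: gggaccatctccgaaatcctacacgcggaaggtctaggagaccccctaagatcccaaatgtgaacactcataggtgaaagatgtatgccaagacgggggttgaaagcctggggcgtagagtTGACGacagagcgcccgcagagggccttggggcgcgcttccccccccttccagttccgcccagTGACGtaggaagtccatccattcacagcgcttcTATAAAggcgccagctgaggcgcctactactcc
Npas4, chr19:4989972-4990221, minus strand: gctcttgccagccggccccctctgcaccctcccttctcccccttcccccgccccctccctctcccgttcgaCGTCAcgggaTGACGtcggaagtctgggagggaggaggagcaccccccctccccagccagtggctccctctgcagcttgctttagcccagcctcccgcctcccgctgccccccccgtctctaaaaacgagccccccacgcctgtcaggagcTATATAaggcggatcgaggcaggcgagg

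Of the immediate early genes, 6 matched an entry of the promoter table: the 4 shown, Fosb and Egr4. Arc, Egr1 and Egr3 had no entry. A half-site was found before the start of each of the 6, against 17.8% of all 32851 promoter windows of that length. At least 2 half-sites were found in 4 of them, Fos, Nr4a1, Npas4 and Egr4, against 3.90% of all windows. In Nr4a1 there were 4, the nearest beginning 40 bases before the start, in Fos the nearer of a pair began 66 bases before it, and in Junb the single one began 106 bases before it. The full element TGACGTCA, which contains a half-site on each strand, was in none of the 6 and in 1.55% of all windows. A TATA box was found in Fos, Npas4 and Egr4, beginning 33, 28 and 29 bases before the start, against 11.5% of all windows. The CArG box, the element bound by SRF, was in none of these windows and in 1.47% of all of them. Sequence further than 250 bases from the start was not searched, so this does not show that the genes lack the element. Half-sites were found both in promoters of genes lower in every fasting library and in promoters of genes whose groups overlapped. A match of letters is not evidence that a site is used.

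Arc was lower in the substantia nigra of fasted mice and was the only immediate early gene called. Junb and Nr4a1 also lay below the ad libitum range in every fasting library but did not pass the threshold, and the levels of Fos, Fosb, Npas4, Egr1, Egr3 and Egr4 overlapped between the diets. The median log2 fold change of the 9 genes, fasting minus ad libitum, was -0.42, with 6 below 0 and 3 above, beside a median of 0.00 and 50.9% below 0 over all 19109 genes tested. Without ad libitum replicate 2 the median of the 9 was -0.11. By the quasi-likelihood test of edgeR over all genes, with a call at a Benjamini-Hochberg adjusted p below 0.05, 0.497% of all genes were called and 0.351% were called lower, and 1 of the 9 immediate early genes was. The groups did not overlap in 3 of the 9, all lower under fasting. Over all genes, groups did not overlap in 27.5%, and in 15.0% with the fasting libraries lower. The count of 3 in 9 is thus near the share in either direction and above the share with fasting lower. With so few genes that excess was not tested. The tissue was sequenced in bulk, so fewer cells of a type and less RNA per cell cannot be told apart.

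**Figure D1:**
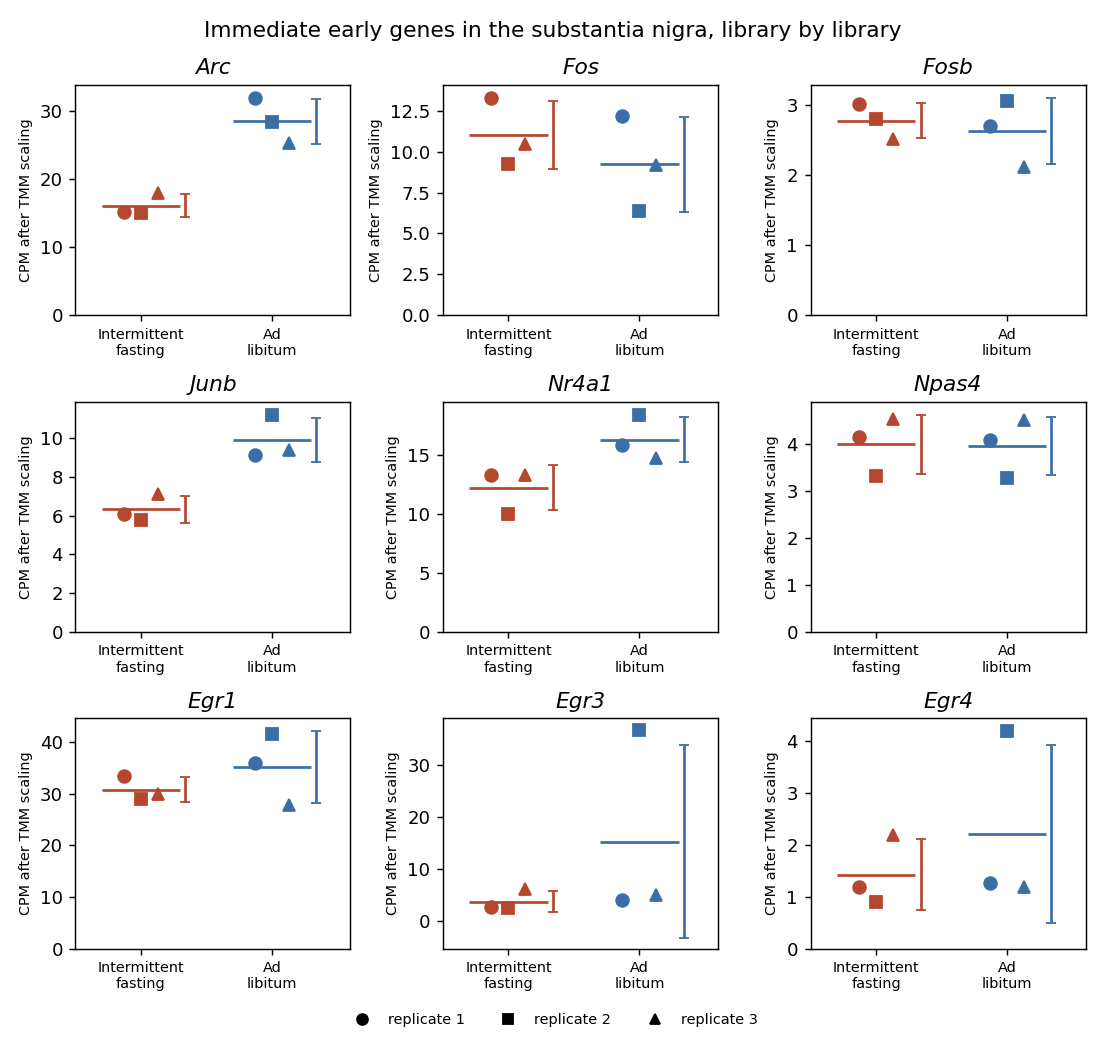
Level of each immediate early gene in CPM after TMM scaling (vertical axes) in the 3 fasting and 3 ad libitum libraries, with marker shapes for replicates, horizontal lines for means and error bars for the SD. The fasting libraries lie below all ad libitum libraries for Arc, Junb and Nr4a1, and ad libitum replicate 2 lies far above the rest for Egr3, at 36.8 CPM.

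Arc (ENSMUSG00000022602) encodes a synaptic protein that promotes the removal of AMPA-type glutamate receptors from the membrane and is needed for lasting memory, and its mRNA travels into dendrites. It was at 15.2, 15.0 and 18 CPM in fasting replicates 1, 2 and 3, against 31.9, 28.3 and 25.3 CPM in ad libitum replicates 1, 2 and 3. The highest fasting library lay well under the lowest ad libitum library. The coefficient of variation was alike in the groups, at 10.4% under fasting and 11.7% ad libitum. Arc averaged 16.1 ± 1.68 CPM under fasting and 28.5 ± 3.33 CPM ad libitum (SD, n = 3 each), a log2 fold change of -0.82 (SE 0.11, 95% interval -1.09 to -0.56, edgeR adjusted p = 0.0422). By p it ranked 65 among the 95 genes called in the table, and 30 of the called genes, Arc included, had a log2 fold change at or below its own. Ad libitum replicate 2, at 0.989 times the mean of the other ad libitum libraries, did not stand apart for Arc, and without it the log2 fold change was -0.84. The call lies close to the threshold and was lost in 5 of the 6 fits that left out a library, with an edgeR adjusted p of 0.246, 0.0861 and 0.287 without fasting replicates 1, 2 and 3, and 0.0656 and 0.115 without ad libitum replicates 2 and 3.

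Junb (ENSMUSG00000052837) encodes a partner of the FOS proteins in the AP-1 transcription factor. It was at 6.09, 5.78 and 7.10 CPM in fasting replicates 1, 2 and 3, against 9.10, 11.2 and 9.38 CPM in ad libitum replicates 1, 2 and 3. As for Arc, fasting replicate 3 was the highest of its group and still below every ad libitum library. Its log2 fold change was -0.65 (SE 0.13, 95% interval -0.94 to -0.35), and edgeR did not call it (adjusted p = 0.0685). DESeq2, which called 7.40% of all genes and 4.51% lower, called it (adjusted p = 0.00153), as did edgeR without ad libitum replicate 1 (adjusted p = 0.0373), and without ad libitum replicate 2 the log2 fold change was -0.55 (edgeR adjusted p = 0.103). In the mouse annotation Junb overlaps Prdx2, a peroxidase gene on the opposite strand, and 6.51% of the 31-base words of Junb occur there in reverse. The sources used here do not say whether counting used strand. Prdx2 was at 143 ± 4.82 CPM under fasting and 148 ± 4.60 CPM ad libitum, a log2 fold change of -0.05.

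Nr4a1 (ENSMUSG00000023034), an orphan nuclear receptor also known as NUR77 that depolarization induces, showed a smaller difference in the same direction. It was at 13.3, 10.0 and 13.3 CPM in fasting replicates 1, 2 and 3, against 15.8, 18.4 and 14.7 CPM in ad libitum replicates 1, 2 and 3. The gap between the groups was narrow, 13.3 CPM being the highest level under fasting and 14.7 CPM the lowest ad libitum. On the log2 scale the difference was -0.42 (SE 0.14, edgeR adjusted p = 0.157), and -0.33 without ad libitum replicate 2 (adjusted p = 0.264). Arc, Junb and Nr4a1 were the 3 of the 9 genes with an unadjusted edgeR p below 0.05, all lower. Over all genes the share was 20.4% in either direction and 11.6% with fasting lower.

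The FOS genes and Npas4 gave no such separation. Fos (ENSMUSG00000021250), the classical marker of activated neurons, was at 13.3, 9.27 and 10.5 CPM in fasting replicates 1, 2 and 3, against 12.2, 6.36 and 9.17 CPM in ad libitum replicates 1, 2 and 3. Its lowest level was in ad libitum replicate 2, the library in which Egr1, Egr3, Egr4, Fosb, Junb and Nr4a1 were at their highest. The log2 fold change of Fos was 0.25 with a 95% interval of -0.36 to 0.86 (edgeR adjusted p = 0.616), and 0.04 without ad libitum replicate 2. That interval includes a rise of 1.82-fold and a level of 0.782 times that of ad libitum mice, so it does not show that Fos was alike in both diets.

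Fosb (ENSMUSG00000003545), whose stable splice product accumulates under repeated stimulation, was at 3.02, 2.80 and 2.52 CPM in fasting replicates 1, 2 and 3, against 2.71, 3.06 and 2.12 CPM in ad libitum replicates 1, 2 and 3. The fasting libraries lay inside the ad libitum range, with a log2 fold change of 0.08 and a 95% interval of -0.34 to 0.50 (edgeR adjusted p = 0.833), and 0.20 without ad libitum replicate 2. The counts are per gene and do not separate that splice product. Npas4 (ENSMUSG00000045903), a neuron-specific factor that calcium entry induces selectively and that shapes inhibitory synapses, was at 4.14, 3.31 and 4.54 CPM in fasting replicates 1, 2 and 3, against 4.09, 3.28 and 4.51 CPM in ad libitum replicates 1, 2 and 3. It averaged 4 ± 0.630 CPM under fasting and 3.96 ± 0.623 CPM ad libitum (SD, n = 3 each). Its log2 fold change was 0.01 with a 95% interval of -0.41 to 0.43 (edgeR adjusted p = 0.972), and -0.11 without ad libitum replicate 2 (adjusted p = 0.784). A change of up to 1.35-fold upward or to 0.755 times the ad libitum level lies within the interval from all libraries.

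**Figure D2:**
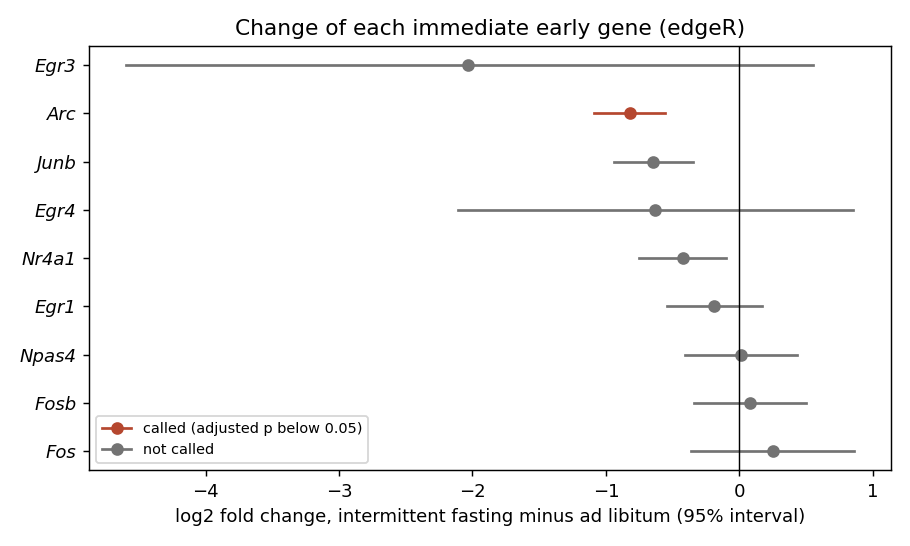
Log2 fold change of each immediate early gene, intermittent fasting minus ad libitum (horizontal axis), with its 95% interval from edgeR and 3 libraries per diet. The intervals of Arc, Junb and Nr4a1 lie below 0, Arc alone was called, and the interval of Egr3 runs from -4.60 to 0.55.

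The EGR genes encode zinc finger transcription factors that bind a shared GC-rich element, and Egr3 and Egr4 varied most between libraries of a group among all 9 genes. Egr1 (ENSMUSG00000038418), also known as ZIF268, was at 33.4, 28.9 and 30 CPM in fasting replicates 1, 2 and 3, against 36.0, 41.5 and 27.7 CPM in ad libitum replicates 1, 2 and 3. The fasting libraries lay inside the ad libitum range, with a log2 fold change of -0.19 and a 95% interval of -0.54 to 0.17 (edgeR adjusted p = 0.524), and -0.05 without ad libitum replicate 2.

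Egr3 (ENSMUSG00000033730) had the largest fold difference of the 9, and it rested on 1 library. It was at 2.73, 2.43 and 6.10 CPM in fasting replicates 1, 2 and 3, against 4.13, 36.8 and 5.04 CPM in ad libitum replicates 1, 2 and 3. Ad libitum replicate 2 was 8.02 times the mean of the other ad libitum libraries, and fasting replicate 3 was above both of those. On the log2 scale the difference was -2.03 (SE 1.02, edgeR adjusted p = 0.343), and -0.29 without ad libitum replicate 2 (SE 0.43, adjusted p = 0.771).

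Egr4 (ENSMUSG00000071341) was at 1.18, 0.902 and 2.20 CPM in fasting replicates 1, 2 and 3, against 1.27, 4.19 and 1.18 CPM in ad libitum replicates 1, 2 and 3. It was highest in ad libitum replicate 2, next highest in fasting replicate 3 and lowest in fasting replicate 2, as was Egr3. Its log2 fold change of -0.63 (edgeR adjusted p = 0.606) changed sign to 0.22 without ad libitum replicate 2 (adjusted p = 0.812). Egr4 had the fewest counts of the set, 39 to 203 per library, so counting alone gives a coefficient of variation of 12.4% under fasting, against 47.7% between the fasting libraries. In GENCODE M21 0.523% of the 31-base words of Egr3 and 0.378% of those of Egr4 occur in other genes, so few words are shared between these relatives.

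Genes of striatal neurons were highest in the same library as Egr3 and Egr4, and over the other libraries the order of these genes differed in part. Adora2a, the adenosine receptor of striatal neurons, was at 1.48, 1.41 and 4.43 CPM in fasting replicates 1, 2 and 3, and at 1.88, 51.1 and 1.05 CPM in ad libitum replicates 1, 2 and 3. The signalling protein gene Ppp1r1b was at 28.6, 32.4 and 49.2 CPM under fasting and at 31.8, 319 and 49.5 CPM ad libitum. Fasting replicate 3 was next highest for Egr3, Egr4, Adora2a and the summed level of the striatal list. For Ppp1r1b ad libitum replicate 3 was next highest, by a narrow margin. All 12 striatal genes were highest in ad libitum replicate 2, but the list was drawn up after the values were seen, so this count is no test. By edgeR 0 of the 12 were called, with 0 at an unadjusted p below 0.05. Their part in the levels of Egr3 and Egr4 was not tested.

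**Figure D3:**
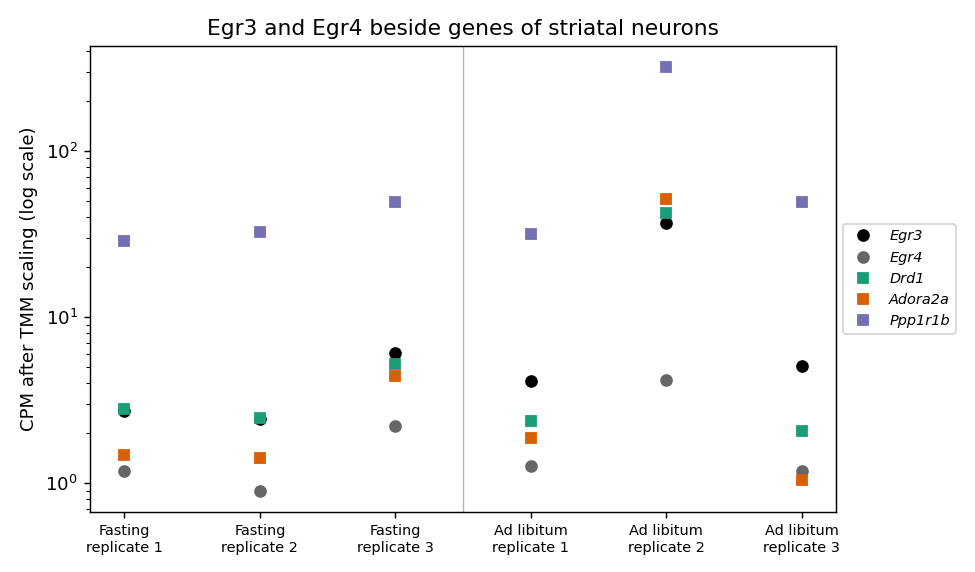
Levels of Egr3 and Egr4 (circles) and of the striatal neuron genes Drd1, Adora2a and Ppp1r1b (squares) in each of the 6 libraries, in CPM on a log scale. All 5 genes are at their highest in ad libitum replicate 2, where Egr3 is at 36.8 CPM and Adora2a at 51.1 CPM.

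The libraries differed in which immediate early genes they held most of. Fasting replicate 2 was the lowest of all 6 libraries for 5 of the 9 genes, Arc, Junb, Nr4a1, Egr3 and Egr4. Ad libitum replicate 2 was the highest for 6 genes but the lowest for Fos and Npas4, and ad libitum replicate 3 was the lowest for Fosb and Egr1. Fasting replicate 2 was below the gene's own mean over the 6 libraries for 8 of the 9 genes. Relative to the ad libitum mean of each gene on the log2 scale, the mean over the 9 genes was -0.38, -0.62 and -0.17 in fasting replicates 1, 2 and 3, and -0.11, 0.36 and -0.25 in ad libitum replicates 1, 2 and 3, so the means of the diets overlapped. Egr3 alone was at -1.14 and -0.86 in ad libitum replicates 1 and 3. The median over the 9 genes was -0.29, -0.70 and -0.20 in fasting replicates 1, 2 and 3. It was 0.06, 0.19 and -0.17 in ad libitum replicates 1, 2 and 3, so the medians did not overlap, by a narrow gap.

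To ask whether Arc departed from the other immediate early genes or moved with them, its count was divided by the count of each other gene within a library, which removes library scaling. The ratio of Arc to Fos was 1.15, 1.62 and 1.72 in fasting replicates 1, 2 and 3, against 2.63, 4.44 and 2.76 in ad libitum replicates 1, 2 and 3. The ratio of Arc to Npas4 was 3.68, 4.54 and 3.97 under fasting, against 7.81, 8.61 and 5.60 ad libitum. In both ratios every fasting library lay below every ad libitum library. The same held for Arc over Fosb, Egr1 and Nr4a1, and so for 5 of the 8 ratios. These 5 each gave an exact two-sided permutation p of 0.1, the smallest that 3 libraries against 3 allow, and 0.16 adjusted over the 8 pairs, so none could pass. Over all other genes in the table, the ratio of Arc to the gene was lower in every fasting library for 81.3%, so the count of 5 in 8 is no feature of these genes.

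The ratio of Arc to Junb, by contrast, overlapped, at 2.5, 2.60 and 2.54 in fasting replicates 1, 2 and 3 and 3.50, 2.52 and 2.69 in ad libitum replicates 1, 2 and 3. The difference of the mean log2 ratio was -0.18 (exact two-sided permutation p = 0.3, adjusted p = 0.4). The fasting libraries were within 0.1 of each other in this ratio, although fasting replicate 3 held more of both transcripts. The ratios of Arc to Egr3 and to Egr4 also overlapped, with an exact p of 0.8 and 0.6.

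**Figure D4:**
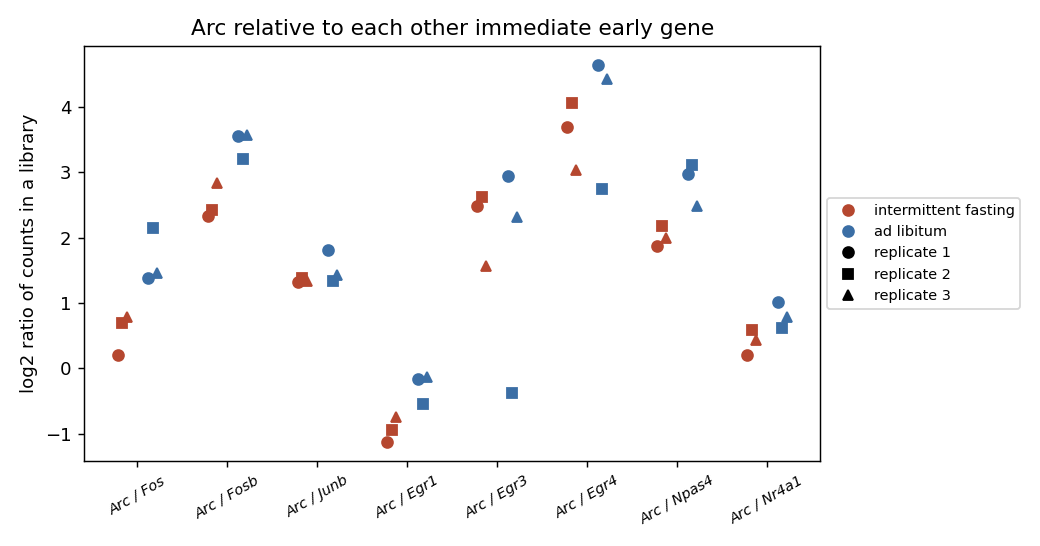
Log2 ratio of the Arc count to the count of each other immediate early gene within a library (vertical axis), with 3 fasting libraries to the left of 3 ad libitum libraries for each gene and marker shapes for replicates. Fasting libraries lie below all ad libitum libraries for Fos, Fosb, Egr1, Npas4 and Nr4a1, and the groups overlap for Junb, Egr3 and Egr4.

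Levels of different genes were compared as CPM per kilobase of annotated exon sequence. Egr1 and Arc were the most abundant, at means over the 6 libraries of 7.35 and 7.29 CPM per kilobase, and their order differed between the diets. Under fasting Egr1 stood at 6.87 ± 0.524 and Arc at 5.26 ± 0.548 CPM per kilobase, and ad libitum Egr1 stood at 7.82 ± 1.55 and Arc at 9.32 ± 1.09 CPM per kilobase (SD, n = 3 each). Egr1 was above Arc in every fasting library and below it in ad libitum replicates 1 and 3. Fos, Nr4a1 and Junb followed at 4.30, 4.06 and 3.53 CPM per kilobase. Fos was above Nr4a1 in 4 of 6 libraries, so the order of that pair is not fixed, and Nr4a1 was above Junb in 6 of 6. Egr3 had a mean of 2.16 but ran from 0.551 to 8.35 CPM per kilobase. Npas4 at 0.962, Egr4 at 0.847 and Fosb at 0.433 CPM per kilobase were the least abundant. Npas4 exceeded Egr4 in 5 of 6 libraries and Egr4 exceeded Fosb in 5 of 6.

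The 5 genes whose profile over the 6 libraries lay closest to the mean profile of the immediate early genes were Tagln, Sec14l1, Rinl, Fosl2 and R3hdm4, of 15544 genes with a mean of at least 1 CPM. Likeness was the root mean square difference of log2 CPM centred on each gene's mean, which was 0.0978 for Tagln, an actin-binding protein gene of smooth muscle, and 0.103 for Fosl2, another AP-1 factor of the FOS family. All 5 were at their highest in ad libitum replicate 2, as was the mean profile. In that library Egr3 and Egr4 lay 2.00 and 1.16 above their ad libitum means on the log2 scale. The other immediate early genes ran from -0.48 for Fos to 0.26 for Egr1 there, so the mean profile does not describe each of them. Fosl2 was at 7.64, 7.21 and 9.23 CPM in fasting replicates 1, 2 and 3, against 8.85, 11.9 and 7.61 CPM in ad libitum replicates 1, 2 and 3, and was not called (log2 fold change -0.23, edgeR adjusted p = 0.513, and -0.04 without ad libitum replicate 2).

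Genes related to the set in structure or function showed no call. Of 8 other AP-1 and NR4A factors tested, 0 were called by edgeR, with 1 at an unadjusted p below 0.05, and DESeq2 called 0. Their median log2 fold change was 0.09, beside 0.00 for all genes. Jun, the partner of the FOS proteins, was at 39.4, 43.2 and 40.1 CPM in fasting replicates 1, 2 and 3, against 53.3, 49.8 and 44.5 CPM in ad libitum replicates 1, 2 and 3. Its groups did not overlap, with a difference of -0.27 on the log2 scale (edgeR adjusted p = 0.134), the same direction as Junb. Mafk, a small MAF protein, was at 0.15 and Nr4a2, which also specifies dopamine neurons, at 0.63 on the same scale, Nr4a2 with an SE of 0.46 and overlapping groups. Without ad libitum replicate 3, the library highest for dopaminergic genes, Nr4a2 was at 1.29 (SE 0.16, edgeR adjusted p = 0.115). In the other fits that left out a single library Nr4a2 was between 0.34 and 0.68.

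Of 32 other genes that activity or growth factors induce rapidly, 0 were called by edgeR, 7 had an unadjusted p below 0.05, and the median log2 fold change was -0.08. DESeq2 called 2, both lower, Klf10 and Ptgs2. Klf10, a zinc finger repressor, was at 3.82, 4.95 and 4.16 CPM in fasting replicates 1, 2 and 3, against 5.89, 6.69 and 6.48 CPM in ad libitum replicates 1, 2 and 3 (log2 fold change -0.56, edgeR adjusted p = 0.0916). Zfp36, whose protein speeds the decay of short-lived mRNAs, was at -0.41 on the log2 scale (edgeR adjusted p = 0.119), and its groups did not overlap. Ptgs2, the inducible cyclooxygenase gene, named after its values were seen, was at 0.637, 0.809 and 1.02 CPM in fasting replicates 1, 2 and 3, against 1.25, 7.17 and 1.77 CPM in ad libitum replicates 1, 2 and 3 (edgeR adjusted p = 0.202). Its log2 fold change was -2.04, and -0.88 without ad libitum replicate 2 (edgeR adjusted p = 0.189). On the other side, Ier3 was at 0.41 and Ccn2, a matricellular protein gene, at 0.39 (edgeR adjusted p = 0.146 and 0.167), both with every fasting library above every ad libitum library.

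Of 18 genes that activity induces with a delay, mostly neuropeptides and secreted synaptic proteins, 0 were called by edgeR, 2 had an unadjusted p below 0.05, and the median log2 fold change was -0.02. It was 0.20 without ad libitum replicate 2. Crh, which encodes corticotropin-releasing hormone, was at 1, 2.01 and 0.789 CPM in fasting replicates 1, 2 and 3, against 2.82, 2.33 and 3.12 CPM in ad libitum replicates 1, 2 and 3 (log2 fold change -1.12, edgeR adjusted p = 0.146), and DESeq2 called it as the 1 gene of this list. Scg2, a precursor of secreted peptides, was at 0.32 on the log2 scale (edgeR adjusted p = 0.199). Sorcs3 was at 0.25 and the receptor gene Nrp1 at -0.20 on the same scale.

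The factors that switch immediate early genes on showed no call with all libraries. Of 31 upstream regulators 0 were called by edgeR, 5 had an unadjusted p below 0.05, DESeq2 called 0 and the median log2 fold change was 0.00. Creb1 itself was at 47.9, 47.1 and 46.3 CPM in fasting replicates 1, 2 and 3, against 52.4, 54.9 and 50.2 CPM in ad libitum replicates 1, 2 and 3. Its groups did not overlap, but the difference was small, -0.16 ± 0.05 (SE) on the log2 scale (edgeR adjusted p = 0.167). Elk4, a partner of SRF, was at -0.23, the kinase gene Rps6ka5 at -0.36 and the CREB coactivator gene Crtc3 at 0.17 on the same scale.

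Partners of the encoded proteins did not pass the test either. Of 10 partners and corepressors 0 were called by edgeR, 1 had an unadjusted p below 0.05, DESeq2 called 0 and the median log2 fold change was 0.02. Nab1 and Nab2, corepressors of the EGR proteins, were at -0.21 and -0.19, Nab2 at -0.08 without ad libitum replicate 2. Rxrg, a partner receptor of the NR4A proteins, was at 6.23, 7.00 and 7.33 CPM in fasting replicates 1, 2 and 3, against 3.20, 20.4 and 4.96 CPM in ad libitum replicates 1, 2 and 3. Its log2 fold change of -0.47 (SE 0.72) turned to 0.74 without ad libitum replicate 2 (SE 0.20, edgeR adjusted p = 0.142). Of 13 synaptic partners of the Arc protein, among them glutamate receptor subunits and the endophilin and dynamin genes, 0 were called by edgeR, 0 had an unadjusted p below 0.05, DESeq2 called 0 and the median was 0.07. The scaffold genes Dlgap1 and Dlg4 were at 0.22 and 0.13, Camk2b at 0.17 and Dnm2 at -0.11. With all libraries, where Arc fell, the genes of its partners thus did not pass in either direction. Without ad libitum replicate 1, edgeR called Arc and also 1 partner gene, Gria3, higher. That fit called 6.18% of all genes.

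**Figure D5:**
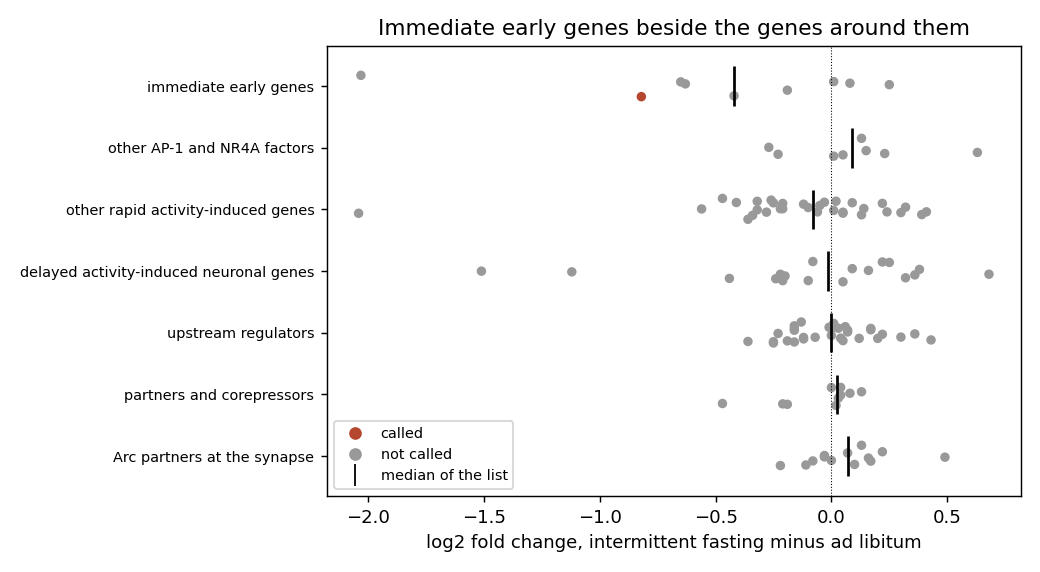
Log2 fold change, intermittent fasting minus ad libitum (horizontal axis), of every gene tested in the immediate early set and in 6 lists of related genes, with a bar at each median. The median is -0.42 for the immediate early genes and between -0.08 and 0.09 for the other lists, and Arc is the only gene called.

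Genes of neurons, microglia and oligodendrocytes are given for comparison. Of 10 general neuronal genes 0 were called by edgeR, 2 had an unadjusted p below 0.05, DESeq2 called 1, Uchl1, higher, against 2.90% of all genes called higher, and the median log2 fold change was 0.14. Their summed level was 5885 to 6333 CPM under fasting and 4757 to 6731 CPM ad libitum, overlapping ranges. Of the 10, 2 were higher in every fasting library, against 12.5% of all genes. The part of neuronal content in the level of Arc was not tested. Of 8 microglial genes 2 fell by edgeR, Fcrls and C1qa, and C1qa alone without ad libitum replicate 2. Their median log2 fold change was -0.62, and -0.52 without that library. DESeq2 called all 8, against 4.51% of all genes called lower, and all 8 had groups that did not overlap, against 15.0% of all genes with fasting lower, with a summed level of 269 to 274 CPM under fasting and 342 to 469 CPM ad libitum. Of 8 oligodendrocyte genes 1 fell by edgeR, Ugt8a, and 0 without ad libitum replicate 2. Their median was -0.57, and -0.42 without that library. DESeq2 called all 8, and all 8 did not overlap, at 9544 to 11986 CPM under fasting and 13602 to 18478 CPM ad libitum. These glial lists thus moved in the same direction as Arc, Junb and Nr4a1, and their part in those levels was not tested.

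Cortical and hippocampal excitatory neurons, in which Arc is abundant, were followed by 11 genes. Of these, 0 were called by edgeR, 3 had an unadjusted p below 0.05, against 20.4% of all genes, and DESeq2 called 1, Tbr1, lower. The log2 fold change was below 0 for 6 of the 11 and above 0 for 5. Among the 3 were the transcription factors Emx1 and Tbr1, which define such neurons. Each of the 3 was lower in every fasting library, against 15.0% of all genes. Tbr1 was at 0.955, 0.855 and 1.54 CPM in fasting replicates 1, 2 and 3, against 1.65, 8.16 and 3.83 CPM in ad libitum replicates 1, 2 and 3 (log2 fold change -2.02, edgeR adjusted p = 0.153), and its log2 fold change was -1.29 without ad libitum replicate 2 (adjusted p = 0.193). Emx1 was near the floor in every library, at 0.0455 to 0.192 CPM under fasting and 0.318 to 0.406 CPM ad libitum. None of the 11 was at 0 in any library. Over the 9 of them with a mean count of at least 50, the median log2 fold change was 0.18. The other 8 overlapped between the diets. The median of the 11 was -0.27, and 0.14 without ad libitum replicate 2, and their summed level was 719 to 1045 CPM under fasting and 626 to 1028 CPM ad libitum. The part of such neurons in the level of Arc was not tested.

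The 10 dopaminergic genes had a median of -0.31, which turned to 0.35 without ad libitum replicate 3, and the 5 erythroid genes one of -1.13, which was -0.32 without that library. The median was -0.41 for 7 GABAergic genes, 0.29 for 6 midbrain and thalamic excitatory genes (-0.08 without ad libitum replicate 2), -0.15 for 8 endothelial genes and -0.34 for 7 astrocyte genes (-0.18 without ad libitum replicate 3). By edgeR 0 were called in each of these 6 lists. At an unadjusted p below 0.05 there were 0 dopaminergic, 0 erythroid, 2 GABAergic, 0 midbrain and thalamic, 4 endothelial and 4 astrocyte genes, against 20.4% of all genes. DESeq2 called 3 astrocyte genes lower, 2 endothelial genes lower and 1 higher, and none of the others. Its shares over all genes were 4.51% lower and 2.90% higher. Fasting lay lower without overlap for 4 astrocyte, 2 endothelial and 1 GABAergic genes, against 15.0% of all genes. It lay higher for 1 endothelial gene, against 12.5%. The part of these cell types in the immediate early genes was not tested.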

How the data were processed

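Per the labels, polyadenylated RNA of the substantia nigra was sequenced with the NEBNext Ultra II Directional kit. The authors deposited estimated counts per gene, 1 column per library, as whole numbers not scaled between libraries; the submitters' processing notes name Salmon, DESeq2 1.40.2 and GRCm39, without their roles. The sources used here do not give the Salmon version, annotation or use of strand. Columns were matched to libraries by the labels, and no value changed on rounding. Every gene had at least 60 counts over the libraries together.

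From these counts, edgeR 4.0.16 (R 4.3.3) kept 19109 of 19251 genes (filterByExpr) and scaled them by TMM. Fasting was tested against ad libitum by the two-sided quasi-likelihood test with robust shrinkage and no covariate, adjusted over all genes tested. SE is the log2 fold change over the root of F. Alternatives were RLE scaling, DESeq2 1.42.0, limma-voom (limma 3.58.1), other filters, no robust shrinkage, a replicate block and leaving out each library. DESeq2 shares are over the 18842 genes to which it gave an adjusted p. The fits were tested on simulated data. Exact permutation of 3 against 3 libraries cannot give p below 0.1. The labels do not say that libraries came from separate animals, so p-values measure only the spread between these samples. Libraries of a group differed by more than sampling noise.

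Members and lists were chosen with earlier results of these data known; the striatal list, Prdx2 and Ptgs2 were chosen after their values were seen. Besides the members, each list names its called genes and up to 4 of smallest p, further ones being chosen after their values were seen. Exon lengths, overlaps and shared 31-base words came from GENCODE M21 (GRCm38), not the build the files use. Promoters came from RefSeq on GRCm38.p6. Some genes of the lists are not reported here by name.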

Additional observations from a re-analysis of the deposited data

How the results depend on the processing

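Arc, Junb, Nr4a1, Egr1 and Egr3 kept a negative and Fos a positive log2 fold change in all 13 alternatives. Arc ranged from -0.92 to -0.73 and was called in 5 of them, with adjusted p from 2.41e-07 (DESeq2) to 0.287 (without fasting replicate 3). It was not called by limma-voom (0.056), without robust shrinkage (0.0537), or without fasting replicate 1 (0.246), 2 (0.0861) or 3, or ad libitum replicate 2 (0.0656) or 3 (0.115), and 0 immediate early genes were called in these, each with 3 or 4 at an unadjusted p below 0.05. Junb was called by DESeq2 and without ad libitum replicate 1, which made 2 calls of immediate early genes in each, and ranged from -0.74 to -0.55 with adjusted p from 0.00153 to 0.287. Leaving out single libraries gave 0 to 2 such calls and 0 to 1187 calls over all genes, against 95 with all libraries: 0 when fasting replicate 1 or 3 was left out, and 1187, 45 and 1 when ad libitum replicates 1, 2 and 3 were. Over all genes DESeq2 called 1395, limma-voom 32 and edgeR without robust shrinkage 9. Among the lists of related genes, edgeR without ad libitum replicate 1 called Gria3 and Grin1, both higher. It also called Ier5, Dusp6 and Tiparp of the rapidly induced list, 2 higher and 1 lower. Fewer samples were fitted when a library was left out; otherwise the cause was not tested. Signs changed for 3 genes when single libraries were left out. Egr4 ranged from -1.09 to 0.22 (ad libitum replicate 2 left out), Fosb from -0.05 (ad libitum replicate 3 left out) to 0.20, and Npas4 from -0.11 (ad libitum replicate 2 left out) to 0.13, with -0.02 and -0.09 when fasting replicate 1 or 3 was left out. Where the sign changed, the value was smaller than its SE.

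With the replicate block 285 genes were called over the table and 0 of the immediate early genes (Arc adjusted p = 0.0573). Deviations of same-numbered libraries from their group means correlated at 0.206, -0.0386 and -0.106 for numbers 1, 2 and 3. Only number 1 correlated best with its own number. With 3 libraries per group these correlations depend on each other, so they cannot decide whether same-numbered libraries were paired. The labels do not say that they were. Depth limits Egr4 most, at 39 counts in its lowest library.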
